A study of Mus musculus with 8 samples.

Results

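The transcripts of the oxidative phosphorylation subunits were followed in WT and Mll3/4 dCD cells at d2 EpiLC and in EpiSC. The members were all genes of the EpiLC and EpiSC tables whose identifier belonged to a protein-coding mouse gene with a subunit name, that is, names that start with mt-, Uqcr, Atp5, Sdha to Sdhd, Nduf (a, b, c, s or v with a number) or Cox (4 to 8), without the Sdhaf assembly factors. The rule uses names and no measured value. It gave 91 of the 32334 listed genes, of which 78 are encoded in the nucleus (30 for complex I, 4 for complex II, 8 for complex III, 18 for complex IV and 18 for complex V) and 13 in the mitochondrial DNA (7, 1, 3 and 2 for complexes I, III, IV and V). A further 7 genes that fit the names (Cox7a2l, Cox8a, Ndufa6, Ndufa11, Ndufb9, Ndufs4 and Ndufs8) were not analysed here. The names cover most core and accessory subunits, and Atp5s, a factor of the ATP synthase that is no core subunit, is among them by name.

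There were 8 libraries of polyadenylated RNA in 4 groups of 2 libraries. All derived from the mouse embryonic stem cell (ESC) line R1. WT is R1 itself, and Mll3/4 dCD is a clonal R1 derivative in which KMT2C (MLL3) and KMT2D (MLL4), the main enhancer H3K4 monomethyltransferases, are present but catalytically dead. EpiLC are epiblast-like cells taken on day 2 of culture with activin A, bFGF and KSR on fibronectin. EpiSC are epiblast stem cells kept for longer in activin A and bFGF, with no KSR named for their medium. Differences between the stages therefore cannot be told apart from those of medium and time in culture. ESC of both genotypes came from 2i and LIF medium. Nothing states that the libraries of a group came from separate cultures, so the p-values measure the spread between these libraries, which may be technical.

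Oxidative phosphorylation passes electrons from NADH (complex I) and succinate (complex II) through complex III to oxygen at complex IV, and the ATP synthase (complex V) uses the proton gradient that the pumps build. Complex II is encoded in the nucleus alone, whereas complexes I, III, IV and V join nuclear subunits to subunits encoded in mitochondrial DNA, so that RNAs of both genomes are needed. Several nuclear subunits exist as paralogues used in particular tissues, and cells leaving the naive state for the primed state are known to rely less on respiration and more on glycolysis.

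The data are a per-gene signal that is length-scaled within a library, so levels of different genes can be set side by side, with less certainty for very short messages. The 2 stages are in separately scaled tables. Levels were therefore not tested between stages, and ratios within a library are compared without a test. Marker sums and other levels of both stages are set side by side only as a description. The dCD difference in EpiSC less that in EpiLC was tested. With 1 added to each value, this contrast still depends on the scale of the tables for values near or below 1. WT and dCD were compared with limma on log2(value + 1) with all 8 libraries, and a gene was called at an adjusted p under 0.05 (Benjamini-Hochberg over the 12717 genes that reached a value of 1 in 2 or more of the libraries). Of the members, 86 passed that filter, 73 nuclear and all 13 mitochondrial. Counts at an unadjusted p under 0.05 are given without their share over all genes. That share is at least that of the called genes, 10.1% in EpiLC, 14.5% in EpiSC and 10.4% in the stage contrast. Such counts are therefore no evidence of a shift in a set.

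As checks of the labels, markers of the gastrulating epiblast summed to 25.5 to 49.0 in EpiLC and to 647 to 1206 in EpiSC. Other markers moved with genotype. In EpiLC, 7 of 8 tested naive ESC markers were called higher in dCD, where 7.56% of all tested genes were. The summed level of the 7 two-cell-like markers there was 1.28 and 1.15 in WT against 45.3 and 42.0 in dCD. In EpiSC, the summed fibroblast and feeder markers, led by Vim and Fn1, were 627 and 589 in WT against 1313 and 1456 in dCD, and those of primitive and visceral endoderm 113 and 77.4 against 240 and 222. The part of these cell-state differences in the values of the subunits was not tested, and in such bulk samples fewer cells of a type and less RNA per cell cannot be told apart. The mutations leave both Mll3 and Mll4 transcribed, so RNA levels do not check the genotype label.

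Sequences of members that the results turn on are shown before their values. The first is the mt-Atp8 transcript, the single mitochondrial message called between the genotypes. It lies at chrM:7766-7969 on the plus strand of GRCm38 and has 204 bases, which makes it the shortest of the 13 messages. The capitals mark its last 43 bases (21.1% of it), which are also the first bases of mt-Atp6, so that a read from there fits both genes (sequence from GENCODE vM21).

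mt-Atp8: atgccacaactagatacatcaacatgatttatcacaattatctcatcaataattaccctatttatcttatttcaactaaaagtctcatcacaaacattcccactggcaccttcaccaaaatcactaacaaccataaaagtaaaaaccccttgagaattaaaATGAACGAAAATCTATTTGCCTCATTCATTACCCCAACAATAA

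The second set is 5 promoters of complex IV subunits, each 250 bases before to 50 after the start (RefSeq, GRCm38.p6). They are both paralogues of the Cox7a and Cox6b pairs, and Cox6a1, which carries matches to 2 motifs. The shares within these pairs did not overlap between the genotypes in either stage, but they were not tested. Capitals mark matches, on either strand, to the NRF1-type motif GCGCANGCG or the ETS-type motif CCGGAAG (the core bound by GABPA), with both factors known as regulators of respiratory genes, and to the YY1-type motif AAGATGG. Windows were chr5:115348909-115349208 (minus strand) for Cox6a1, chr7:30183921-30184220 (plus) for Cox7a1, chr9:79759804-79760103 (minus) for Cox7a2, chr7:30626065-30626364 (minus) for Cox6b1 and chr7:4753045-4753344 (minus) for Cox6b2.

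Cox6a1: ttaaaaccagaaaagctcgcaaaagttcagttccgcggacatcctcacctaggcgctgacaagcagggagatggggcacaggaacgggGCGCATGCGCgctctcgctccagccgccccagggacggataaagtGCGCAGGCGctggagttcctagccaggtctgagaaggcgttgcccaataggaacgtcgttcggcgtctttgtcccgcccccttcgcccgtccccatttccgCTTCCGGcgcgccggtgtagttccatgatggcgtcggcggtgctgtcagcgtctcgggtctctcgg

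Cox7a1: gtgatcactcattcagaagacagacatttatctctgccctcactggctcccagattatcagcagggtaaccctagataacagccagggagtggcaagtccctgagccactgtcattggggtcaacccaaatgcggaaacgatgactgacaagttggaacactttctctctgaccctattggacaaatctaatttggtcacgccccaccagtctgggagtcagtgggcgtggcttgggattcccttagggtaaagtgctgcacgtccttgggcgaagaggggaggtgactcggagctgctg

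Cox7a2: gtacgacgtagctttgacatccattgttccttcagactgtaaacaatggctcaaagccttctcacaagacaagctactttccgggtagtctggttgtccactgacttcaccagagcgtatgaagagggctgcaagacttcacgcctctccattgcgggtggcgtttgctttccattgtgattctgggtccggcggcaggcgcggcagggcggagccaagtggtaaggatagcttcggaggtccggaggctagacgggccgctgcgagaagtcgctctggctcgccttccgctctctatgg

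Cox6b1: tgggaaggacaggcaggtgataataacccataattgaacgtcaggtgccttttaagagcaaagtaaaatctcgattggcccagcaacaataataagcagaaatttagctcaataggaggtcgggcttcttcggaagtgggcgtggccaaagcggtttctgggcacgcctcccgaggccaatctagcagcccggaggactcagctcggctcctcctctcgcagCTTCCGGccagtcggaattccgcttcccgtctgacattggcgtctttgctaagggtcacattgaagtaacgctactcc

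Cox6b2: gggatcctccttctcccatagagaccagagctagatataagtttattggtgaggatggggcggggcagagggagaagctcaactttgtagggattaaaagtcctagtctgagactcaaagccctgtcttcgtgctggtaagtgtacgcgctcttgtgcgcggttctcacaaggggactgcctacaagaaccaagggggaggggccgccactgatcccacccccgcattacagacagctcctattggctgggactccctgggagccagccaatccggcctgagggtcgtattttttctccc

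Cox6a1 held 3 NRF1-type matches, 2 of them overlapping as the same palindromic letters, and 1 ETS-type match that began 16 bases before the start. Cox6b1 held 1 ETS-type match, 28 bases before the start, and the windows of Cox7a1, Cox7a2 and Cox6b2 held none of the 3 motifs. Of the 77 distinct nuclear member symbols, 60 had a promoter in the table. The NRF1-type motif was in 18 of them (30.0%, against 6.25% of all 32851 promoters), the ETS-type motif in 14 (23.3%, against 8.86%) and the YY1-type motif in 9 (15.0%, against 6.34%). Member promoters were also richer in CpG, with a median of 19 CpG per window against 7, and the NRF1-type and ETS-type motifs contain CpG. The 60 members had 65 windows. A member was counted for a motif if any of its windows held it, and by its window with the most CpG. All promoters were counted singly, so the comparison favours the members. The Cox7a1 window held 7 CpG and that of Cox7a2 20, and Cox6b2 held 10 and Cox6b1 17. A match is a description of the letters and not evidence of binding.

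Levels came first. The summed nuclear members made up 2.14% to 2.74% of the total signal of a library, and the summed mitochondrial members 2.63% to 4.12%. The highest nuclear member of each complex was Atp5b, the catalytic beta subunit of the ATP synthase, with a mean of 1635 over the 8 libraries of both tables, Cox7c of complex IV (803), Uqcrh, the hinge protein of complex III (577), Ndufb8 of complex I (320) and Sdhd, a membrane anchor of complex II (186). Complex V took the largest share of the nuclear sum in every library, 39.9% to 41.1%, followed by complex IV with 23.5% to 25% and complex I with 19.2% to 20.6%. Complexes III and II took 11.9% to 13.3% and 2.25% to 3.53%. The order of the complexes was thus the same in all 8 libraries, in both stages and both genotypes.

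The highest mitochondrial message by the group mean was mt-Atp8 of complex V in WT EpiLC (9529), mt-Co3 of complex IV in dCD EpiLC (5452) and mt-Co1, the catalytic subunit of complex IV, in WT and dCD EpiSC (7713 and 6757). The lowest was mt-Nd3 of complex I in all 4 groups (286 to 536), although the messages of each strand are cut from long shared transcripts. The ratio of mt-Atp8 to mt-Atp6, which lie on the same RNA, ran from 1.34 to 4.75 over the libraries. The rank of so short a message as mt-Atp8 is therefore uncertain. Only mt-Nd6 lies on the minus strand. The kit marks strand, but no source used here states that the quantification used it, so mt-Nd6 and RNA of the opposite strand may not be told apart. The mitochondrial messages are few and high: the median of their levels was above that of the nuclear members by 2.56 to 3.59 on the log2 scale within every library.

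EpiLC libraries spread more than EpiSC libraries, and not by genotype. The nuclear sum was 18690 and 24080 in WT EpiLC against 28300 and 17400 in dCD EpiLC, so the WT values lie between the dCD values. In EpiSC it was 20330 and 20450 in WT against 20070 and 18880 in dCD. The lower of the WT and the lower of the dCD EpiLC libraries carry different replicate numbers. Replicate 1 was below replicate 2 in WT EpiLC for 70 of the 73 nuclear members (median difference -0.35 on the log2 scale), and above it in dCD EpiLC for 68 of 73 (median 0.70).

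Cytosolic ribosomal protein genes, which are also short and abundant, moved in the same way, with medians of -0.37 and 0.70 over 73 genes, whereas over all 12717 tested genes the medians were 0.03 and -0.02. A slope against the log2 transcript length was taken on the log2 values of a library less each gene's mean over the 4 libraries of its stage. It compares libraries within a stage only. The slope was 0.08 and -0.01 in WT EpiLC, -0.12 and 0.04 in dCD EpiLC, and between -0.03 and 0.04 in EpiSC. The library with the lowest slope had the highest nuclear sum. The sum of the nuclear members over that of the ribosomal proteins was steadier, with 0.131 and 0.129 in WT EpiLC, 0.121 and 0.123 in dCD EpiLC and 0.131 to 0.136 in EpiSC. The part of transcript length in the spread was addressed only by a fit on values from which that trend was removed. There the median difference of the nuclear members in EpiLC was -0.04. In that fit 3 of them were called higher and 1 lower in dCD EpiLC. The share over all genes in that fit is not given here, so these counts cannot be read against it.

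**Figure D1:**
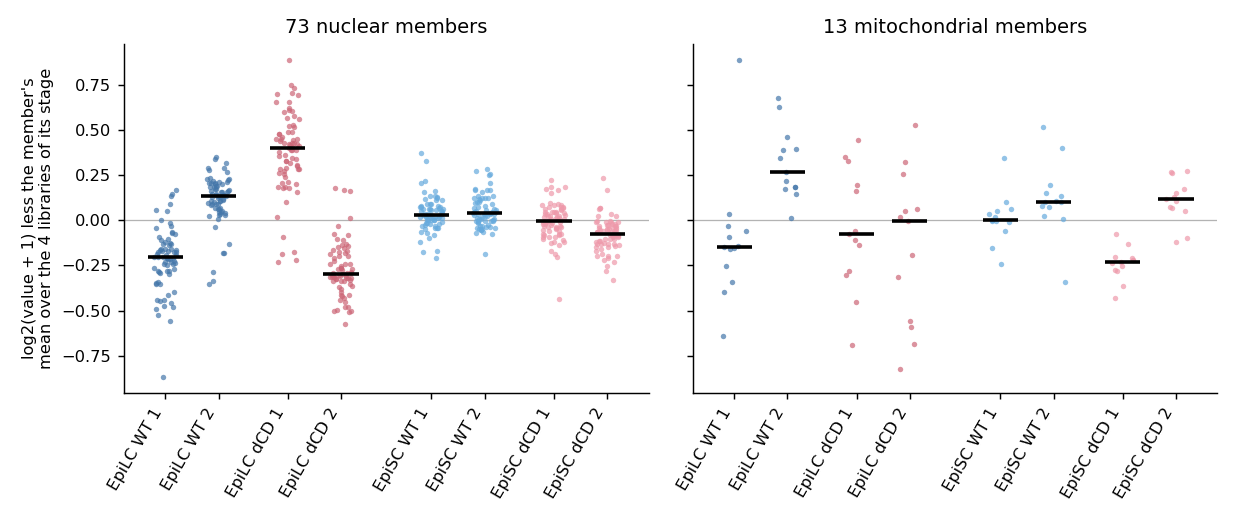
Each point is 1 member in 1 library, as log2(value + 1) less the mean of that member over the 4 libraries of its stage; black lines are medians over the 73 nuclear (left) or 13 mitochondrial members (right) that passed the filter. Nuclear members sit high in EpiLC WT 2 and EpiLC dCD 1 and low in EpiLC WT 1 and EpiLC dCD 2, while the EpiSC libraries lie close together.

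In EpiLC, few nuclear members separated the genotypes. Of 73 tested, 2 were called higher in dCD (2.74%, with 7.56% of all tested genes called higher) and 0 lower (2.57% of all genes), and 7 had an unadjusted p under 0.05. The median difference was 0.08 on the log2 scale, beside 0.03 over all genes. The 95% confidence interval of the difference lay within -1 to 1 for 63 of the 73, with a median half-width of 0.54. These intervals are not adjusted for the number of genes and differ by gene. A call needs more, and Cox7a1 was not called at a difference of 1.05 (adjusted p = 0.0658, limma). Changes of about the half-width could thus be missed with 2 libraries a group. Median differences by complex were 0.08 (complex I, n = 29), -0.07 (complex II, n = 4), 0.04 (complex III, n = 8), 0.12 (complex IV, n = 15) and 0.05 (complex V, n = 17). Without EpiLC dCD replicate 2, 19 nuclear members were called higher and 2 lower, and the median became 0.44 (14.9% and 10.9% of all genes were then called higher and lower). Leaving out any 1 of the other 7 libraries gave 0 called higher. Without EpiLC dCD replicate 1, the median was -0.25, so the direction of the nuclear set in EpiLC rested on single libraries.

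The 2 called members are minor paralogues of complex IV proteins. Cox4i2 (chr2:152754173-152765037, plus strand) encodes the COX4 isoform known from lung and from low oxygen, and its values were 0.320 and 0.517 in WT against 2.22 and 1.20 in dCD EpiLC. Both dCD values were above both WT values, by 0.91 ± 0.22 (SE) on the log2(value + 1) scale (adjusted p = 0.0452, limma), which understates a change at such a level. Cox4i2 passed the filter only through the dCD EpiLC libraries, so its presence among the tested genes already required it to be high there. Ndufa4l2 (chr10:127514967-127517154, plus strand), the hypoxia-inducible paralogue of NDUFA4, was at 0.483 and 0.658 in WT against 2.00 and 1.27 in dCD, a difference of 0.74 ± 0.17 (adjusted p = 0.0425, limma). These levels are near the filter of 1, and the calls were lost under several settings, with adjusted p-values of 0.012 to 0.238 for Cox4i2 and 0.0145 to 0.236 for Ndufa4l2.

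More generally, 5 of the 73 nuclear members (6.85%) had both dCD values above both WT values in EpiLC, where 26.8% of all tested genes did. They were Cox4i2, Cox6b2, Cox7a1, Ndufa4l2 and Atp5g2, and each is the paralogue with the lower level of its pair or trio. Those below (6 of 73, 8.22%, against 17.7% of all genes) were Ndufs1, Sdha, Sdhc, Uqcrc2, Atp5a1 and Atp5s. These members were singled out after their values were seen. Ndufs1 and Sdha hold catalytic centres of complexes I and II, Uqcrc2 is a core protein of complex III and Atp5a1 the alpha subunit of the ATP synthase. Among them the differences ran from -0.12 for Atp5a1 to -0.36 for Atp5s, and none was called.

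Cox7a1 (chr7:30184144-30186078, plus strand), the heart and skeletal muscle isoform of COX7A, had the largest difference of the paralogues at the pseudocount of 1, whereas with a pseudocount of 0.1 that of Cox4i2 was 1.77. Cox7a1 was at 9.12 and 15.3 in WT against 33.2 and 19.7 in dCD EpiLC, and at 18.1 and 18.4 in WT against 24.7 and 23.8 in dCD EpiSC. Its difference of 1.05 ± 0.28 in EpiLC did not pass the threshold (adjusted p = 0.0658, limma), nor did that of 0.39 ± 0.28 in EpiSC (adjusted p = 0.437), although the latter did with EpiSC fitted alone (adjusted p = 0.0187). As a share of Cox7a1 and Cox7a2 together, which cancels the scale of a library, Cox7a1 was 2.84% and 3.67% in WT against 6.39% and 6.23% in dCD EpiLC, and 4.83% and 4.98% in WT against 6.16% and 6.23% in dCD EpiSC. The share was higher in dCD in both stages without overlap, and the crosswise spread of the EpiLC libraries was not seen in the dCD shares. The 7 heart and skeletal muscle markers summed to 6.41 and 8.99 in WT against 7.12 and 4.76 in dCD EpiLC, with Myh6 at 0 in every library.

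In the Cox6b pair the order of the genotypes was opposite in the 2 stages, though the difference between the stages did not pass the test. Cox6b2, the isoform known from testis, took 7.17% and 7.44% of Cox6b1 and Cox6b2 in WT against 11.5% and 9.94% in dCD EpiLC, but 8.09% and 8.57% in WT against 7.02% and 7.93% in dCD EpiSC. Its levels were 33.3 and 43.1 against 77.5 and 44.6 in EpiLC, a difference of 0.62 ± 0.25 (adjusted p = 0.183, limma). The groups did not overlap in either stage, with dCD above WT in EpiLC and below it in EpiSC. The dCD difference in EpiSC less that in EpiLC was -0.76 ± 0.35 for its level (adjusted p = 0.245).

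Cox4i2 was at most 0.226% of Cox4i1 and Cox4i2 in any library. Its share was 0.0533% and 0.0651% in WT against 0.226% and 0.198% in dCD EpiLC, and 0.134% and 0.0589% in WT against 0.0320% and 0.0452% in dCD EpiSC. Ndufa4l2 took 0.114% and 0.103% of its pair in WT against 0.241% and 0.299% in dCD EpiLC, and 0.357% to 0.517% in EpiSC, where the genotypes overlapped. The major paralogues Cox4i1 (599 and 794 in WT, 981 and 604 in dCD EpiLC) and Ndufa4 (421 and 637 in WT, 828 and 426 in dCD) followed the crosswise spread of the libraries.

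Several tissue isoforms were listed at or near 0. A listed 0 does not show absence in these tables, where Pet117 and Fastkd5, mitochondrial genes of general use, are also listed at or near 0. Cox8b, of heart and muscle, was listed at 0 in all 8 libraries, and Cox6a2, of the same tissues, did not exceed 0.103. Cox8c, known from testis, was at 0.352 and 0.631 in WT against 1.42 and 0.519 in dCD EpiLC and was listed at 0 in all EpiSC libraries. Cox7b2, also known from testis, was at 1.71 and 1.33 in WT against 3.49 and 1.67 in dCD EpiLC, and at 0.0750 to 0.474 in EpiSC. Its share of the Cox7b pair was 0.336% to 0.732% in EpiLC and 0.0261% to 0.189% in EpiSC, so the stages did not overlap, whereas the genotypes did in both. Ndufv3 and a second identifier named Atp5o stayed below the filter as well.

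The 3 genes for the c-ring of the ATP synthase, Atp5g1, Atp5g2 and Atp5g3, encode the same mature protein with different import signals. Atp5g3 was the main source, with 60.6% to 65.5% of the trio in EpiLC and 69.3% to 71.0% in EpiSC. Atp5g1 had 33.6% and 35.4% in WT against 33.4% and 28.6% in dCD EpiLC, and 25.3% to 26.8% in EpiSC. Atp5g2 was 4.23% and 3.59% in WT against 5.95% and 5.83% in dCD EpiLC, and 3.65% to 4.40% in EpiSC. Both stages thus differed in the balance of Atp5g1 and Atp5g3 without overlap, and the genotypes in the share of Atp5g2 in EpiLC. The Atp5g1 share was also below WT in dCD without overlap in both stages, though the nearest libraries were close in each. The level of Atp5g2 differed by 0.43 ± 0.21 in EpiLC (adjusted p = 0.277, limma).

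**Figure D2:**
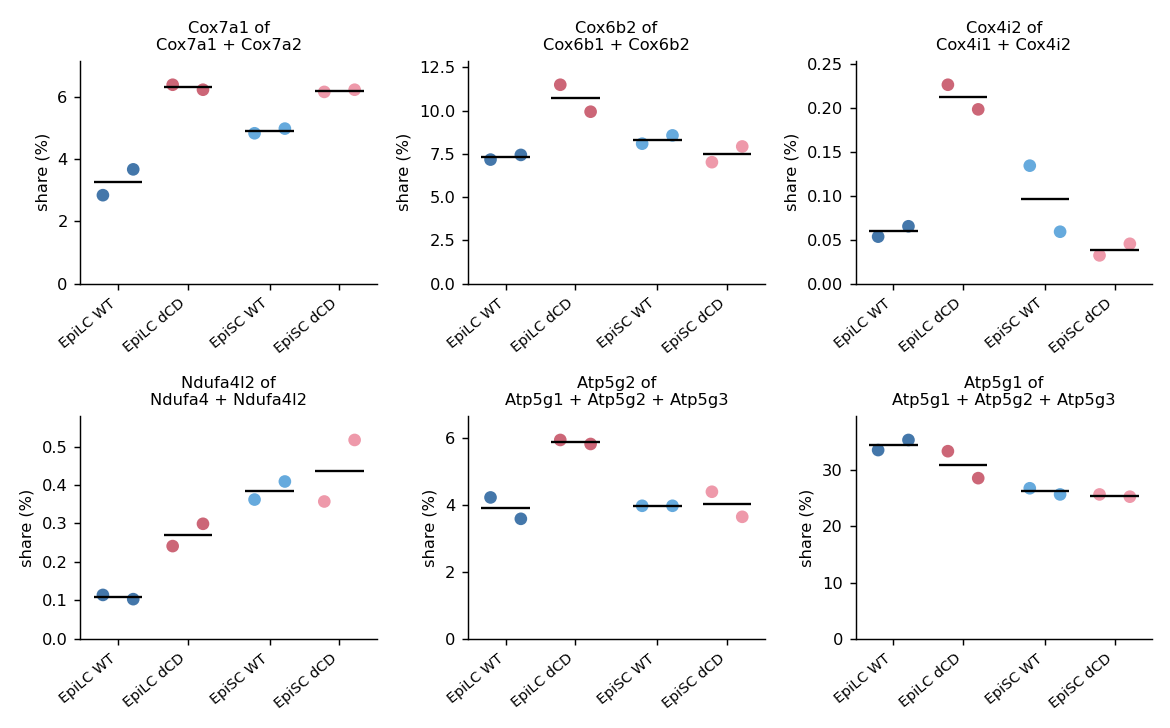
Share of a paralogue in the summed signal of its pair or trio (%), 1 point per library, with lines at the group means. Cox7a1 lies at 2.84% and 3.67% in WT and above 6% in dCD EpiLC, and Atp5g1 takes a smaller share in EpiSC than in WT EpiLC.

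In EpiSC the libraries of a group were closer, and most nuclear members lay slightly lower in dCD. The median difference was -0.06 on the log2 scale (all genes -0.01), with 55 of 73 below 0. Both dCD values were below both WT values for 38 of 73 (52.1%, against 36.5% of all tested genes) and above for 8 (11%, against 35.0%). Of the 29 tested complex I members 18 lay below and 1 above, of the 8 of complex III 5 and 0, and of the 15 of complex IV 5 and 5. Cytosolic ribosomal protein genes showed the same, with 39 of 73 below and a median of -0.09, and so did the mitochondrial ribosomal proteins with 40 of 70 (median -0.08). With the libraries scaled to equal totals the median of the nuclear members was -0.01.

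Of these differences 1 was called, Atp5s lower in dCD (1.37% of the nuclear members, against 6.91% of all genes), with 0 higher (7.57% of all genes) and 2 at an unadjusted p under 0.05. Atp5s (chr12:69724950-69744660, plus strand), known as coupling factor B, was at 9.97 and 9.46 in WT against 5.46 and 6.91 in dCD EpiSC, a difference of -0.58 ± 0.13 (adjusted p = 0.0293, limma). In EpiLC it was at 8.80 and 9.27 in WT against 6.76 and 6.86 in dCD, with -0.36 ± 0.13 (adjusted p = 0.150). Both dCD values were below both WT values in each stage. The count of 1 became 0 without any 1 of the 4 WT libraries or without EpiSC dCD replicate 1, and 4 without either EpiLC dCD library (12.1% of all genes were called lower without replicate 2). Over the alternatives its adjusted p in EpiSC ran from 0.00515 to 0.161.

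Sdhc, a membrane anchor of complex II, was the next lowest by p. It was at 220 and 230 in WT against 182 and 174 in dCD EpiSC (-0.34 ± 0.10, adjusted p = 0.0679, limma), and at 175 and 198 in WT against 149 and 156 in dCD EpiLC (-0.28 ± 0.10, adjusted p = 0.136). Cox7c was at 873 and 895 in WT against 659 and 619 in dCD EpiSC, without overlap (-0.47 ± 0.21, adjusted p = 0.203), while in EpiLC its groups overlapped, with 744 and 914 against 1037 and 684. The wide spread of the EpiLC libraries enters these p-values, since all 4 groups share 1 estimate of it.

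With EpiSC fitted alone, 15 of the 73 nuclear members were called lower (20.5%, against 14.1% of all genes) and 1, Cox7a1, higher (1.37%, against 13.5%). The lower members were Ndufb3, Ndufb6, Ndufb10, Ndufc1, Ndufs1, Ndufs5 and Ndufv1 of complex I, Sdha, Sdhb and Sdhc of complex II, Uqcrc1 and Uqcrfs1 of complex III, Cox7c of complex IV, and Atp5a1 and Atp5s of complex V. Their differences ran from -0.18 for Sdha to -0.58 for Atp5s. This fit has 2 libraries on each side and no others to steady the spread.

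**Figure D3:**
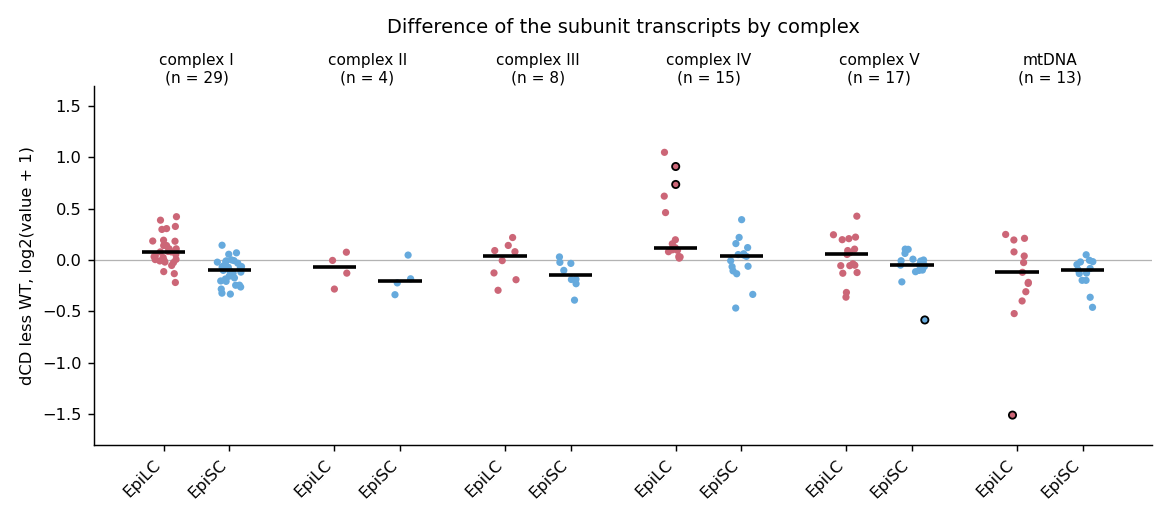
Difference between dCD and WT on the log2(value + 1) scale for each member that passed the filter, by complex for nuclear members and together for the 13 members encoded in mitochondrial DNA (mtDNA). Black lines are medians and black rims mark an adjusted p under 0.05 (limma): Cox4i2 and Ndufa4l2 in complex IV and mt-Atp8 in EpiLC, and Atp5s in complex V in EpiSC.

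The dCD difference in EpiSC less that in EpiLC tests the stage dependence itself. It was called for 1 of the 73 nuclear members, lower for Cox4i2 (1.37%, against 6.72% of all genes), and higher for 0 (3.66% of all genes), with a median of -0.12 over the members and -0.04 over all genes. Cox4i2 had both dCD values above WT in EpiLC and both below in EpiSC, at 0.798 and 0.356 in WT against 0.206 and 0.271 in dCD, and the contrast was -1.25 ± 0.31 (adjusted p = 0.0499, limma). All values of Cox4i2 outside dCD EpiLC were below 1, so it was tested only through the group in which it is high, which favours this contrast, and without the filter the adjusted p was 0.0864. Without EpiLC dCD replicate 2, 12 members were called lower in this contrast (14.6% of all genes), and without any 1 of the other libraries 0. The median over the members was -0.50 without EpiLC dCD replicate 2, 0.16 without EpiLC dCD replicate 1, 0.03 without EpiLC WT replicate 1 and 0.02 with the length trend removed, so its direction was not stable. The median half-width of the interval was 0.76, and the interval lay within -1 to 1 for 43 of the 73.

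Among the 13 mitochondrial messages, mt-Atp8 fell in dCD EpiLC and no other member was called there (7.69%, against 2.57% of all genes, with 0 higher). It encodes a small subunit of the ATP synthase that is translated from the same RNA as mt-Atp6. The values were 10380 and 8678 in WT against 3487 and 3181 in dCD EpiLC, with no overlap and a difference of -1.51 ± 0.29 (adjusted p = 0.0220, limma). In EpiSC they were 3509 and 5569 in WT against 2893 and 4082 in dCD, which overlap (-0.36 ± 0.29, adjusted p = 0.493). The dCD difference in EpiSC less that in EpiLC was 1.15 ± 0.41 (adjusted p = 0.139), so a difference between the stages was not called. The EpiLC call was lost, for example, without either WT library (adjusted p = 0.147 and 0.0863), and over the alternatives the adjusted p ran from 0.00214 to 0.207.

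mt-Atp6, which lies on the same RNA and shares the 43 capital bases printed above, was not called. It was at 2184 and 3135 in WT against 2607 and 1511 in dCD EpiLC (-0.40 ± 0.34, adjusted p = 0.555, limma). The ratio of mt-Atp8 to mt-Atp6 was 4.75 and 2.77 in WT against 1.34 and 2.11 in dCD EpiLC, and 2.25, 2.63, 1.82 and 1.83 in the EpiSC libraries. The WT EpiLC libraries thus differed from each other in this ratio more than any EpiSC libraries did. The other overlapping pair, mt-Nd4l and mt-Nd4 with 7 shared bases, had ratios of 1.39 and 1.20 in WT against 1.03 and 1.87 in dCD EpiLC, and of 1.64 to 1.76 in EpiSC. With the trend of the values on transcript length removed, the difference of mt-Atp8 in EpiLC was -1.65 (adjusted p = 0.0141, limma). That trend was fitted over all tested genes of known length. It cannot test an effect of length particular to so short a message.

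The other 12 mitochondrial members overlapped between the genotypes in EpiLC. There 0 of 13 had both dCD values above WT (26.8% of all genes), and only mt-Atp8 had both below (17.7% of all genes). Over all 13, the median difference was -0.12 in EpiLC and -0.09 in EpiSC, where 12 of 13 lay below 0, 2 (15.4%, against 36.5% of all genes) were below without overlap and none was called (0 higher and 0 lower by limma, 0 at an unadjusted p under 0.05). These medians turned on single libraries: that of EpiLC was -0.29 if WT replicate 1 was left out and 0.08 if WT replicate 2 was, and that of EpiSC was 0.07 without EpiSC dCD replicate 1, -0.27 without dCD replicate 2 and 0.04 with quantile normalization. For the stage contrast 0 were called and 1, mt-Atp8, had an unadjusted p under 0.05. Of the complex I messages, mt-Nd1 was at 2720 and 3608 in WT against 2734 and 3038 in dCD EpiLC, and mt-Nd2 at 985 and 1278 against 816 and 1004. mt-Nd5 was at 617 and 682 against 495 and 629, and mt-Nd3 at 386 and 687 against 481 and 267. These ranges overlapped for each, as they did for mt-Nd4, mt-Nd4l and mt-Nd6, with differences from -0.03 to 0.08. In complex III, mt-Cytb was at 1475 and 2065 in WT against 1792 and 2228 in dCD EpiLC.

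The make-up of the mitochondrial messages differed between the stages. mt-Co1 made up 9.58% and 11.8% of the mitochondrial sum in WT EpiLC, 12.9% and 19.3% in dCD EpiLC and 20.9% to 22.3% in EpiSC. mt-Cytb, the mitochondrial subunit of complex III, went with it, at 4.93% to 9.11% in EpiLC and 10.1% to 12.0% in EpiSC. mt-Co3 took the opposite course, with 15.7% to 26.1% in EpiLC and 9.83% to 13.1% in EpiSC. The ratio of mt-Co1 to mt-Co3, both subunits of the complex IV core, was 0.568 and 0.582 in WT against 0.494 and 1.23 in dCD EpiLC, and 1.61 to 2.13 in EpiSC. The stages did not overlap in any of these measures, though EpiLC dCD 2 lay nearest to the EpiSC libraries in all of them. mt-Atp8 was 34.7% and 24.0% of the sum in WT EpiLC, 12.9% and 13% in dCD EpiLC and 10.5% to 14.7% in EpiSC.

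**Figure D4:**
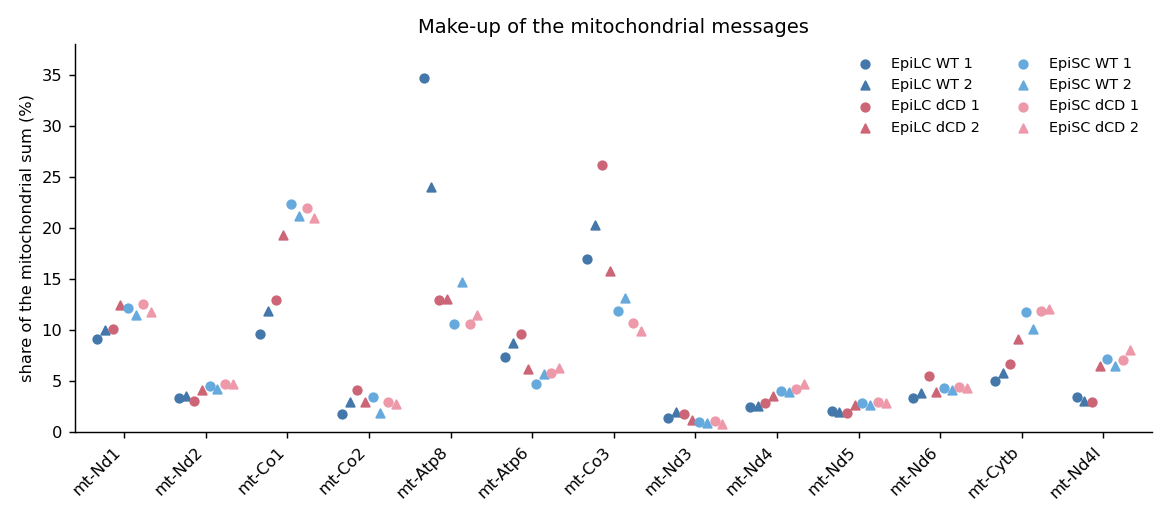
Share of each of the 13 mitochondrial messages in the mitochondrial sum of its library (%), circles for replicate 1 and triangles for replicate 2. The mt-Atp8 share of 34.7% and 24.0% in WT EpiLC stands above all other libraries, and mt-Co1 is higher and mt-Co3 lower in EpiSC than in EpiLC.

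Set against each other, the mitochondrial sum exceeded the nuclear sum in all libraries but 1. The ratio was 1.60 and 1.5 in WT against 0.959 and 1.41 in dCD EpiLC, and 1.64 and 1.85 in WT against 1.38 and 1.89 in dCD EpiSC. The group means were 1.55 ± 0.07 (SD, n = 2) and 1.18 ± 0.32 for WT and dCD EpiLC, and 1.74 ± 0.15 and 1.64 ± 0.36 for WT and dCD EpiSC. WT and dCD did not overlap in EpiLC but did in EpiSC, and the EpiSC range overlapped that of WT EpiLC. By the log2 ratio of medians instead of sums, the EpiLC genotypes overlapped, at 2.56 and 2.77 in WT against 2.61 and 3.26 in dCD. The mean by that measure was higher in dCD (2.94 against 2.67), so the direction depended on the measure. Without mt-Atp8 the EpiLC ratios were 1.05 and 1.14 in WT against 0.836 and 1.22 in dCD, which overlap, and those of EpiSC were 1.23 to 1.68. The separation of the EpiLC groups in the summed ratio was therefore not seen without the single message mt-Atp8.

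Genes around the respiratory chain were taken from lists of related genes. Over all tested genes, 7.56% were called higher and 2.57% lower in dCD EpiLC, and 7.57% and 6.91% in dCD EpiSC. The share at an unadjusted p under 0.05 is at least as large as these together and is not given here. Of 39 tested assembly factors, 0 were called in EpiLC (limma; 5 at an unadjusted p under 0.05) and 1 was lower in dCD EpiSC. This was Ndufaf6, an assembly factor of complex I, at 50.8 and 51.0 in WT against 24.6 and 23.4 in dCD EpiSC (-1.05, adjusted p = 0.0161, limma). In EpiLC it was at 34.0 and 40.6 in WT against 37.2 and 23.6 in dCD. Of 21 genes for the maintenance and expression of mitochondrial DNA, 0 were called in EpiLC (6 at an unadjusted p under 0.05) and 1 was lower in dCD EpiSC. It was Tfam, the factor that packs mitochondrial DNA and starts its transcription, at 129 and 130 in WT against 99.4 and 91.7 in dCD EpiSC (-0.43, adjusted p = 0.0223), with 120 and 130 against 117 and 113 in EpiLC.

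Of 13 regulators of respiratory genes, 1 was higher and 2 were lower in dCD EpiLC (7.56% and 2.57% of all genes). In EpiSC 0 were called (2 at an unadjusted p under 0.05). Esrrb, an orphan receptor of the naive state, rose from 0.325 and 0.350 to 4.89 and 5.99 (2.26, adjusted p = 0.00101, limma). Myc fell from 72.8 and 69.8 to 44.3 and 39.8 (-0.75, adjusted p = 0.00604), and Ppargc1b, a coactivator of mitochondrial biogenesis, from 3.00 and 2.54 to 0.742 and 1.15 (-0.96, adjusted p = 0.0149). For Esrrb and Myc the difference between the stages was called too (-2.23 with an adjusted p of 0.00451, and 1.11 with 0.00565, limma). Over all tested genes, 6.72% were called lower and 3.66% higher in that contrast.

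Of 18 mobile carriers and cofactor genes, Pdss1, which makes the side chain of ubiquinone, was called lower in dCD EpiLC (26.3 and 27.5 against 19.7 and 19.5, adjusted p = 0.0346, limma), where 2.57% of all genes were. In EpiSC 0 were called, and 14 of 18 were below without overlap (77.8%, against 36.5% of all genes). Of 16 tricarboxylic acid cycle genes, Idh2 was called higher in dCD EpiLC (57.4 and 61.0 against 94.1 and 81.3, adjusted p = 0.0259, limma), where 7.56% of all genes were. In EpiSC 0 were called. None of the 70 mitochondrial ribosomal proteins was called by limma, with 4 in EpiLC and 5 in EpiSC at an unadjusted p under 0.05.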

How the data were processed

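RNA-seq libraries (8, in 4 groups of 2) were prepared from polyadenylated RNA with a stranded kit. The authors quantified reads with kallisto and collected genes in sleuth (Ensembl release 96, GRCm38); no source used here gives the tool versions. The deposited values are a signal: TPM by the file headers, but with library sums between 813537 and 1033290. Plain TPM has a fixed total, which 1 library exceeds, so the values were treated as TPM times 1 unknown factor per library, where plain TPM had been planned for; genes not analysed here also lower the sums. Depth is unknown, and no counting interval can be given. The tables pair no gene names with the identifiers; 32092 of 32334 matched GENCODE vM21. Coding genes of chromosomes 13 to 19 are covered less (69.7%) than the others (98.4%), and the remainder was not analysed here. ESC columns (6) were not used.

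Genes at 1 or more in at least 2 libraries were tested with limma 3.58.1 (R 4.3.3) on log2(value + 1), with 1 mean per group, a mean-variance trend and Benjamini-Hochberg adjustment; the script was tested on simulated data. Levels were not tested between stages, which were compared by ratios within a library and by the tested contrast of the dCD differences. Alternatives were other pseudocounts (0.1 and 5), filters, normalizations, fits and libraries.

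Members and lists were chosen with earlier results of these data known. The genes named were all 13 mitochondrial members, the called members with the smallest p of each complex (up to 3 in each direction), all paralogue sets, the highest nuclear member of each complex and up to 3 called genes of each related list, and a few more where said. Reads of overlapping mt-Atp8 and mt-Atp6, and of near-identical paralogues, may be split by the quantification. Replicate numbers are shared by the groups in the labels, but nothing ties libraries with the same number: the replicate differences of WT and dCD correlated across genes at -0.58 in EpiLC and -0.01 in EpiSC, so no block was used.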

Additional observations from a re-analysis of the deposited data

Results flagged for a closer look

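The dCD difference of Cox4i2 was called different between the 2 stages: EpiSC less EpiLC was -1.246 on the log2(value + 1) scale (adjusted p = 0.0499, limma). Its values were 0.320 and 0.517 (WT) against 2.22 and 1.20 (dCD) in EpiLC, and 0.798 and 0.356 (WT) against 0.206 and 0.271 (dCD) in EpiSC, so that both dCD libraries lay above WT in the first stage and below in the second. The 6 values outside dCD EpiLC were below 1, so the gene was tested only through the group in which it is high, and the test is not independent of that choice (adjusted p = 0.0864 with no filter). Over the alternatives the adjusted p ran from 0.0125 to 0.166.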

How the results depend on the processing

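Counts of called members depended on how the spread was estimated. For nuclear members in EpiLC, the 2 called higher became 1 with a pseudocount of 0.1, and 0 with a pseudocount of 5, with no filter, with a mean of at least 5, with quantile normalization, with weights per group and with each stage fitted alone; leaving out 1 library gave 0 to 19 higher and 0 to 2 lower, and removing the length trend 1 lower. The 1 called lower in EpiSC became 2 with quantile normalization, 0 with the mitochondrial genes left out and with libraries scaled to equal totals, 15 with the stage fitted alone (and 1 higher) and 7 with weights per group (16.7% of all genes); leaving out 1 library gave 0 to 4. For the stage contrast, the 1 lower became 0 with a pseudocount of 5, with no filter, with a mean of at least 5, with quantile normalization and with weights per group, and 0 to 12 when 1 library was left out. The 1 mitochondrial member lower in EpiLC became 0 with no filter, with weights per group and with the stage fitted alone, and 0 to 1 when 1 library was left out; with EpiSC fitted alone, 1 was lower there. The cause was not tested. Without the highest mitochondrial member, the mitochondrial over nuclear sum was 1.095 in WT EpiLC and 1.366 in WT EpiSC.

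With a replicate block, 0 nuclear and 0 mitochondrial members were called in any contrast (2.76% and 4.58% of all genes were called in EpiLC and EpiSC). The following were chosen after seeing the data. With crossed replicate numbers in EpiLC, 4 nuclear members were called higher in EpiLC (11.2% of all genes). In EpiSC 1 was higher and 3 lower (10.6% and 10.5%), and 3 were lower in the stage contrast (10.5%). Cox7a1 was called in each contrast. Of the mitochondrial members, 2 were lower in EpiLC (5.22% of all genes) and 1 was higher in the stage contrast (5.8%). Without EpiLC WT 1 and dCD 2, 17 nuclear members were higher and 2 lower in EpiLC (10.0% and 5.73% of all genes), 21 lower in the stage contrast (11.8%), and 1 mitochondrial member was higher there. Without EpiLC WT 2 and dCD 1, that median in EpiLC was -0.09. Both leave EpiSC with 1 nuclear member higher, 15 lower and 1 mitochondrial member lower. Over all genes, 13.4% to 13.5% were then called higher and 14.2% to 14.3% lower in EpiSC. In fits with a lone library in a group, that library is assumed to vary like the others. The median difference of the nuclear members ran from -0.25 to 0.44 in EpiLC and from -0.10 to -0.01 in EpiSC. Depth is unknown, and 2 libraries a group limit the precision.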
